A study of Rattus norvegicus with 6 samples.

Results

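The growth factor immediate early genes were chosen by identifier as Egr1, Fos, Jun, Junb, Myc, Dusp1 and Nr4a1, 7 rat Ensembl genes. A spot was found on every array for 6 of them, out of 20174 genes on the array. The identifier given for Junb, ENSRNOG00000042838, was not among the spots, so Junb was not analysed here. The array files print identifiers without symbols, and the names used here are those given with the identifiers when the genes were chosen. The 6 measured genes are Egr1 (ENSRNOG00000019422), Fos (ENSRNOG00000008015), Jun (ENSRNOG00000026293), Myc (ENSRNOG00000004500), Nr4a1 (ENSRNOG00000007607) and Dusp1 (ENSRNOG00000003977).

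RNA came from rat oligodendrocyte precursors, the dividing glial cells from which myelin-forming oligodendrocytes arise. Day 0 (3 arrays) is the control culture in Raff medium before differentiation, and day 3 (3 arrays) is the culture after differentiation by a change of growth factors. The labels name neither the growth factors, nor the strain and age of the rats, nor the number of cultures or animals behind the arrays of a day, so the spread behind each p-value is that of arrays and may be technical. In each group 2 arrays are numbered 1 and 2 in their titles and 1 is titled in another style without a number, called unnumbered here. The labelled cell type could not be checked against its markers, since none of the identifiers on the array was paired with a symbol in the reference table.

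Immediate early genes are switched on by signals that reach the nucleus without new protein being made. When a growth factor binds its receptor tyrosine kinase, the Ras and ERK cascade phosphorylates transcription factors such as Elk1, which act with serum response factor at CArG boxes, and related kinases act through CREB at cyclic AMP response elements (CREs). The transcripts are unstable, so their level falls back soon after a pulse of signalling, and several of the products, such as the phosphatase Dusp1, act back on the cascade. In oligodendrocyte precursors, growth factor signalling keeps the cells dividing, and differentiation follows when mitogens are withdrawn.

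Upstream sequences are shown because growth factor signalling can act through such motifs. Of the 7 symbols, 4 matched RefSeq promoters of the GRCr8 assembly, and those of the 3 measured genes among them follow, as the 250 bases before the annotated start. Capitals mark CArG boxes, the CRE half-site TGACG and the Egr-family site GCGNGGGCG, each on either strand.
Egr1, GRCr8 chr18:26736828-26737077, plus strand: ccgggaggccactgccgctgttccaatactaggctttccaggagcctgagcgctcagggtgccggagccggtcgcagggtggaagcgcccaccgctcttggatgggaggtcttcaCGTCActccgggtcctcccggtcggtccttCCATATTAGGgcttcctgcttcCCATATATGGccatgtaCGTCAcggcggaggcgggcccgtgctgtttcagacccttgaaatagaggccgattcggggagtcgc
Nr4a1, GRCr8 chr7:134259888-134260137, plus strand: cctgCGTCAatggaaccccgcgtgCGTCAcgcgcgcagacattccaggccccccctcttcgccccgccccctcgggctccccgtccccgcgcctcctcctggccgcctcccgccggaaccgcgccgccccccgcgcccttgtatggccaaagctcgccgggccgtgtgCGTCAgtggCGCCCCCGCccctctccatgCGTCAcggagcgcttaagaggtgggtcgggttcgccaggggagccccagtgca
Dusp1, GRCr8 chr10:17184603-17184852, plus strand: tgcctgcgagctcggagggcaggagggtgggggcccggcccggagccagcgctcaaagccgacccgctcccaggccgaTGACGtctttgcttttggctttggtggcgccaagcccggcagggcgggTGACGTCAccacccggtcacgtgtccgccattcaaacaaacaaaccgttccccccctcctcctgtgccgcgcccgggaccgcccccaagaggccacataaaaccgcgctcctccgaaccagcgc

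The Egr1 window held 2 CArG boxes, at -105 to -96 and -83 to -74 from the start, and 2 CRE half-sites. The Nr4a1 window held 4 CRE half-sites and 1 Egr-family site, and the Dusp1 window 3 CRE half-sites. In Dusp1 the half-sites at -124 to -120 and -121 to -117 lie on opposite strands and overlap, which makes a full palindromic CRE. No CArG box was found in the Nr4a1 and Dusp1 windows, and the AP-1 site TGANTCA, at which Fos and Jun proteins bind, was found in none of the 3. Among 33469 rat promoters of the same length, 1.50% held a CArG box, 18.2% a CRE half-site, 6.34% an AP-1 site and 4.29% an Egr-family site. These matches describe the sequence and were not tested against the array values.

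Each array gave 1 spot signal per gene, the median intensity of the spot in scanner units. Blank spots set the detection limit of an array (their mean plus 2 SD, with 5% trimmed from each end), which lay between 13.9 and 16.9 units. All 6 measured genes were above it on all 6 arrays, with signals from 4.28 to 55.7 times the limit. In all, 15437 genes were tested, those detected on all arrays of either day. Arrays were compared on log2(signal + 50) after quantile normalisation, a scale on which the change of dim genes is understated. Probes differ in brightness for reasons other than transcript number, so no gene's level is set against another gene's.

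**Figure D1:**
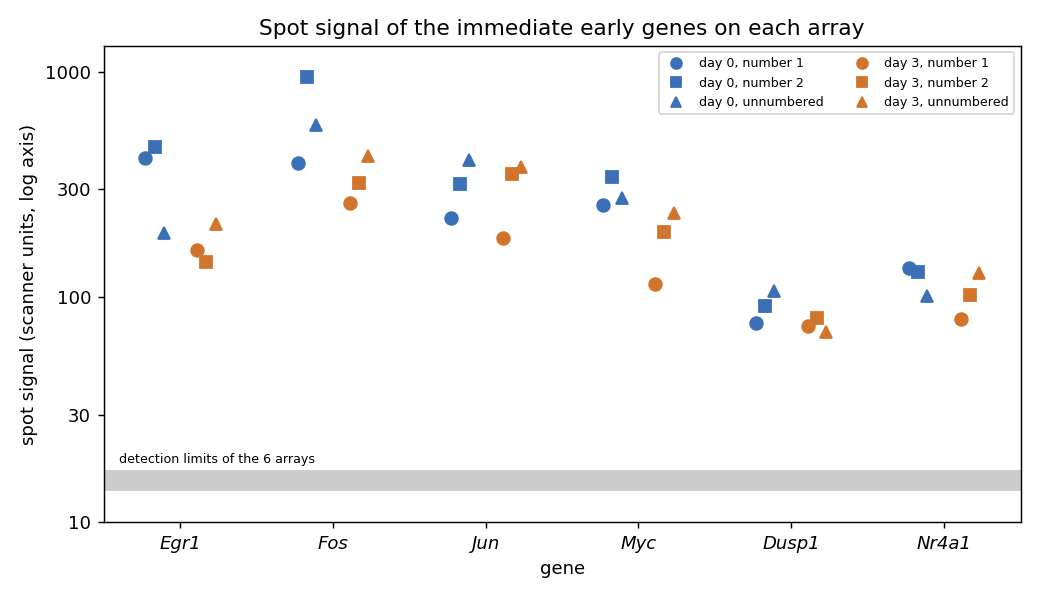
Spot signal in scanner units (log axis) of the 6 measured genes on each array, with 1 point per array, coloured by day and shaped by title number, and a grey band for the detection limits (13.9 to 16.9). Day 0 and day 3 points overlap for every gene but Myc (18.6% of all genes tested are likewise lower on every day 3 array at this stage), and all points lie above the band.

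No immediate early gene passed the test between day 0 and day 3. None of the 6 was called by limma at an adjusted p under 0.05, and none had an unadjusted p under 0.05. With the pairs as a replicate block, Myc had an unadjusted p of 0.0370 (adjusted p = 0.221, limma), or 0.00632 (adjusted p = 0.407) after background correction. With that block limma gave 3055 of the 15437 genes tested an unadjusted p under 0.05, or 1347 after background correction. Egr1 had an unadjusted p of 0.00151 (adjusted p = 0.122, limma) without the unnumbered day 0 array and 0.00505 (adjusted p = 0.206) with the numbered arrays alone. Fos had 0.0162 (adjusted p = 0.323) without day 0 number 1. In these 3 fits 2070 of 15483, 1998 of 15524 and 1694 of 15473 genes had an unadjusted p under 0.05. Over all 6 arrays without a block, 1.04% of all genes tested were called (0.726% as rises and 0.317% as falls) and 13.2% had an unadjusted p under 0.05. On the normalised scale the mean was lower at day 3 for 4 of the 6 and higher for 2, and the median log2 difference was -0.18 against -0.0042 over all genes tested. The groups overlapped on the normalised scale for all 6, while 19.3% of all genes tested had groups that did not overlap. The intervals are wide for Egr1, Fos, Jun and Myc, so the missing calls do not show that these levels stayed the same. Those of Nr4a1 and Dusp1 are narrower, but their width depends on the offset, so these genes are not shown to be unchanged either.

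**Figure D2:**
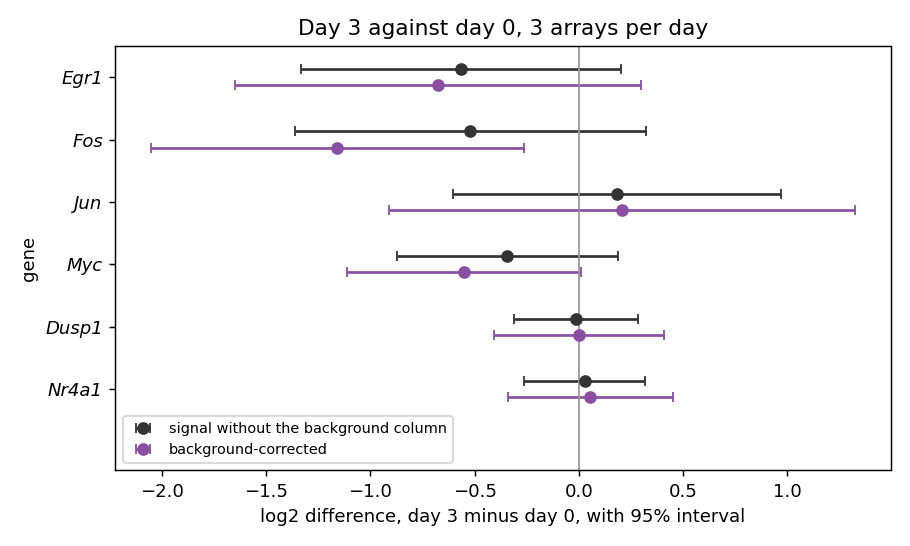
Log2 difference, day 3 minus day 0, for each gene with its 95% interval from limma (3 arrays per day), for the signal without the background column (black) and for background-corrected values (purple). Every black interval crosses 0, and of the purple ones that of Fos does not, spanning -2.05 to -0.26.

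Egr1 encodes a zinc-finger transcription factor whose promoter, printed above, is a classical target of serum response factor. Its spot signal at day 0 was 415 on number 1, 465 on number 2 and 193 on the unnumbered array. At day 3 it was 162, 143 and 211 in the same order. Both numbered day 0 arrays were above all others, and the unnumbered day 0 array lay inside the day 3 range. The means (± SD, n = 3) were 358 ± 145 before and 172 ± 35.4 after differentiation. The log2 difference was -0.56 (SE 0.30, 95% interval -1.33 to 0.20, adjusted p = 0.551, limma). This bounds the change between a 2.51-fold lower and a 1.15-fold higher level at day 3, on the scale with the offset. Among genes tested, 7.31% had a larger absolute difference.

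The Egr1 difference varied with the arrays used. Within the numbered arrays it was -0.72 and -1.16 in pairs 1 and 2, and within the unnumbered pair it was 0.18. The numbered arrays alone gave -0.95 (SE 0.13, adjusted p = 0.206, limma). Leaving out the unnumbered day 0 array gave -0.89 (adjusted p = 0.122, limma), and leaving out day 0 number 2 gave -0.33 (adjusted p = 0.839). The difference between the unnumbered and the numbered day effect was 1.12 (SE 0.23). This comparison was chosen after the pairs had been seen. It had an unadjusted p of 0.0134 in limma and did not pass adjustment over all genes (adjusted p = 0.995), and 0 genes passed it there. That fit has 1 unnumbered array per day, whose spread is taken to be that of the numbered arrays.

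Fos and Jun encode leucine-zipper proteins that pair to form the AP-1 transcription factor. The Fos signal at day 0 was 392, 943 and 581 on number 1, number 2 and the unnumbered array. At day 3 it was 260, 320 and 423. Day 0 number 2 and the unnumbered day 0 array were above all day 3 arrays, and day 0 number 1 lay below the unnumbered day 3 array. The means were 639 ± 280 and 334 ± 82.1 (SD, n = 3), and the log2 difference was -0.52 (SE 0.33, 95% interval -1.36 to 0.32, adjusted p = 0.645, limma). The lower mean held in each pair, with -0.10, -1.06 and -0.40 in pairs 1, 2 and unnumbered. Without day 0 number 2 the difference was -0.23, and without day 0 number 1 it was -0.83.

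The Jun signal showed no common direction. At day 0 it was 223, 318 and 404, and at day 3 it was 182, 353 and 376. Number 1 was the lowest array on both days and the unnumbered array the highest. The means were 315 ± 90.5 and 304 ± 106 (SD, n = 3). After normalisation the log2 difference was 0.18 (SE 0.31, 95% interval -0.60 to 0.97, adjusted p = 0.940, limma), opposite in sign to the difference of the spot means. The pairs gave 0.16, 0.43 and -0.04, and without day 0 number 1 the fitted difference was -0.05. Of these AP-1 partners, Fos had the lower normalised value at day 3 in 3 of 3 pairs and Jun in 1 of 3, and neither passed the test. In spot signal Jun was lower at day 3 in pair 1 and in the unnumbered pair, so its count depends on the scaling.

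Myc encodes a transcription factor that drives cell growth and division and is induced by mitogens slightly later than Fos and Egr1. Its signal was 255, 342 and 274 at day 0 and 114, 194 and 235 at day 3. In these spot signals, before arrays were scaled to one another, every day 3 array was below every day 0 array, as for 18.6% of all genes tested. The median gene signal was itself lower at day 3 within each number, at 26.4, 29.3 and 35.8 on number 1, number 2 and the unnumbered array against 34.6, 31.7 and 38.9 at day 0. The means were 290.1 ± 45.6 and 181 ± 61.5 (SD, n = 3). After normalisation the unnumbered day 3 array (8.13 on the log2 scale) lay above day 0 number 1 (8.06), and the groups overlapped. The log2 difference was -0.34 (SE 0.21, 95% interval -0.87 to 0.19, adjusted p = 0.620, limma), with -0.50, -0.42 and -0.10 in the 3 pairs. In the authors' deposited table, which scales each array to a median of 25, Myc stood at 141, 155 and 143 at day 0 and at 68.5, 126 and 143 at day 3. There the unnumbered arrays of the 2 days were level and day 3 number 1 was the lowest.

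Nr4a1 encodes an orphan nuclear receptor, also known as Nur77, whose activity depends largely on its own induction. Its signal was 135, 129 and 101 at day 0 and 79.6, 102 and 127 at day 3, with overlapping groups. The numbered arrays were lower at day 3 and the unnumbered array higher. The means were 121 ± 18.3 and 103 ± 24.0 (SD, n = 3). After normalisation the sign turned, as for Jun, and the log2 difference was 0.03 (SE 0.11, 95% interval -0.26 to 0.32, adjusted p = 0.984, limma). On this scale a change above 1.25-fold in either direction lay outside the interval.

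Dusp1 encodes a nuclear phosphatase that switches off MAP kinases and so limits the signal that induced it. Its signal was 76.5, 91.4 and 106 at day 0 and 74.5, 80.2 and 70.1 at day 3. The highest arrays were day 0 number 2 and the unnumbered day 0 array, and day 0 number 1 lay within the day 3 range. On the normalised log2 scale the means were 7.06 ± 0.15 and 7.05 ± 0.16 (SD, n = 3), and the difference was -0.01 (SE 0.12, 95% interval -0.31 to 0.29, adjusted p = 0.992, limma), and 88.0% of genes tested had a larger one in either direction. On this scale changes above 1.24-fold lay outside the interval. The Nr4a1 spots lay at 5.72 to 8.81 times the limit and the Dusp1 spots at 4.28 to 6.30 times, a range where the offset narrows both differences and intervals. With a smaller offset of 16 as the only change, the SE in limma was 0.15 for Nr4a1 and 0.16 for Dusp1, against 0.11 and 0.12. In a limma fit to log2 of the authors' deposited values, without the offset, the SE was 0.36 for Nr4a1 and 0.35 for Dusp1. That fit also differs in scaling and in subtracting the blank mean, and its SE was 0.35 to 0.40 for every measured gene. Its wider SE therefore cannot be put down to the offset alone. The bounds given for both genes hold only on the scale and with the offset used for them.

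**Figure D3:**
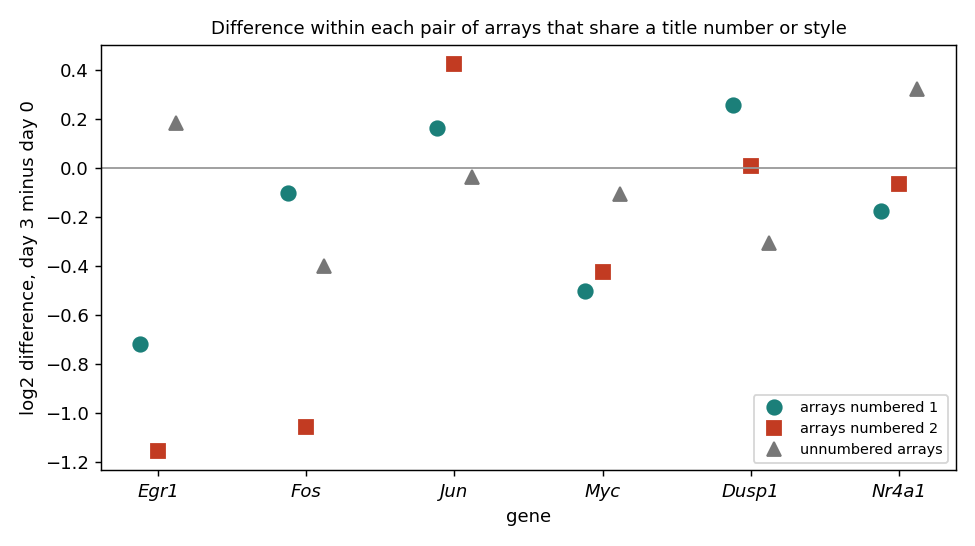
Log2 difference, day 3 minus day 0, of the normalised signal within the arrays numbered 1, those numbered 2 and the unnumbered arrays, for each gene (1 point per pair). Fos and Myc lie below 0 in all pairs, and Egr1 lies at -0.72, -1.16 and 0.18.

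The 3 pairs had 1 sign for 2 of the 6 genes, Fos and Myc, and for 43.6% of all genes tested. The title style itself set apart 5.55% of the 15437 genes when it was fitted beside day in limma (adjusted p under 0.05). None of the 6 was among them, with the lowest adjusted p at 0.465 for Egr1. Normalised values were highest on day 0 number 2 for 4 of the 6 genes, namely Egr1, Fos, Myc and Nr4a1. The share of all genes tested that were highest on that array was not computed, so this count may describe the array.

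Egr1 and Fos varied most among the day 0 arrays. The SD of the normalised log2 values at day 0 was 0.57 for Egr1 and 0.61 for Fos, and 4.11% and 3.41% of genes tested had a larger one. At day 3 the SD was 0.12 and 0.20, and 49.7% and 33.1% of genes had a larger one. The median SD over genes tested was 0.12 on both days. Jun varied alike at both times, with 0.43 and 0.42. Myc had 0.24 and 0.32. Nr4a1 had 0.18 and 0.12, and Dusp1 0.15 and 0.16. In spot signal, the highest day 0 array was 2.41 times the lowest for Egr1 and 2.40 times for Fos. Over all genes tested 52.0% had a larger SD at day 0 than at day 3. With 3 arrays a day these spreads are descriptions, and their difference was not tested.

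Of the 6 genes, Fos shifted most in its fitted difference when the deposited background reading beside each spot was used. Across genes that reading rose with the spot's own signal, with a Spearman correlation of 0.917 to 0.968 on the 6 arrays, which describes the arrays and carries no p-value. For Fos it amounted to 15.5%, 23.8% and 12.4% of the signal at day 0 and to 13.9%, 60.6% and 80.4% at day 3. The median over all genes on the array was 65.2%, 69.2% and 68.1% at day 0 and 77.7%, 78.7% and 71.0% at day 3, in the same order. The low Fos shares are thus further from that median than the high ones, but the median gene was much dimmer than Fos. Its signal was 26.4 to 38.9 units on the 6 arrays, against 260 to 943 for Fos. Of the brighter measured genes, Egr1 and Myc had low shares on most arrays and Jun had high shares throughout. Which Fos readings are the unusual ones was not tested. When the reading was used for background correction (normexp), the Fos difference was -1.16 (SE 0.35, unadjusted p = 0.0212, adjusted p = 0.569, limma), and every day 3 value was below every day 0 value, as for 5.95% of all genes tested. Fos was the 1 gene of the 6 with an unadjusted p under 0.05 there, against 7.30% of all genes tested. With these values 0 of the 6 were called (limma, adjusted p under 0.05), against 0.0324% of all genes tested. Without the reading the Fos difference was -0.52, as given above.

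**Figure D4:**
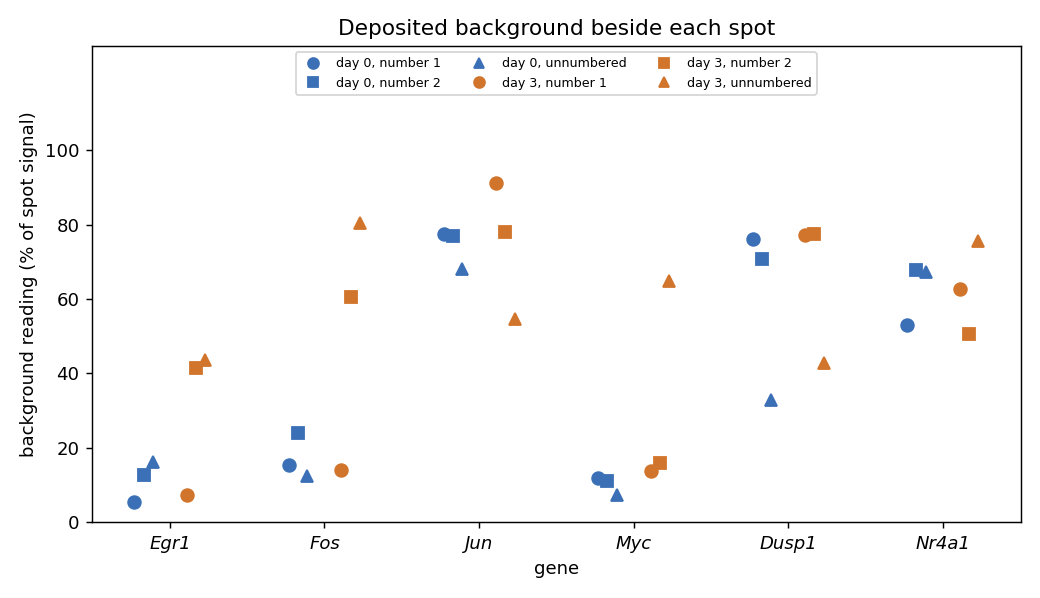
Deposited background reading as a percentage of the spot signal for each gene, 1 point per array, coloured by day and shaped by title number. For Fos 2 of the 3 day 3 arrays lie at 60.6% and 80.4%, above the day 0 arrays at 12.4% to 23.8%, and Jun lies between 54.8% and 91.2% throughout. The median over all genes on an array, not drawn, was 65.2% to 78.7%.

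The fitted differences of the other genes were moved less by the background reading. Background correction gave -0.67 for Egr1 (SE 0.38, adjusted p = 0.834, limma), whose reading made up 41.3% of the signal on day 3 number 2, 43.5% on day 3 unnumbered and 5.51% to 16.2% elsewhere. The Myc difference was -0.55 (SE 0.22, adjusted p = 0.697), with a reading at 64.8% for the unnumbered day 3 array and 7.35% to 15.9% elsewhere. For Jun the difference was 0.21, for Nr4a1 0.06 and for Dusp1 0.0012, with adjusted p of at least 0.992 in limma. The small shift for Jun is an average over pairs that moved in opposite directions. Its pairs 1, 2 and unnumbered went from 0.16, 0.43 and -0.04 to -0.33, 0.23 and 0.73.

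Without background correction and over all 6 arrays, Egr1 (-0.56) had the largest difference of the 6, narrowly ahead of Fos (-0.52). With background correction that of Fos was larger, as it was without day 0 number 1 and without day 3 number 2. By the naming rule, the genes with the most similar pattern to Egr1 were sought among the other 15436 genes tested. Over the 6 arrays the highest Pearson correlations of normalised log2 values were 0.985 for ENSRNOG00000005289 and 0.983 for ENSRNOG00000032224, which have no symbol here. Their own log2 differences were -0.02 and -0.12 (adjusted p = 0.938 and 0.567, limma), and neither was called. Mean normalised log2 values at day 0 and day 3 were 6.06 and 6.04 for the first and 6.57 and 6.45 for the second. On this scale with the offset, the first lies close to the detection limits, so its variation is that of a dim spot. These are the highest of many correlations over 6 arrays that share their processing, and they carry no p-value.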

How the data were processed

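Total RNA was amplified, labelled with Cy5 and hybridised to 1-colour arrays, per the labels' protocols. Per the file headers, the authors deposited for each spot the median intensity at 635 nm and a background median, both in scanner units, with lines between readings at 3 gains. The labels and headers name no scanner software. The authors' deposited table of processed signal was found, from its values, to be the spot signal minus the mean of the array's blank spots, scaled to a median of 25 over the genes it lists, without the background column. The listed genes are nearly those above the limit used here: on 5 arrays 1 to 56 listed genes lay below it, and on 1 array 5 unlisted genes lay above it.

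In R 4.3.3 with limma 3.58.1, log2(signal + 50) was quantile normalised over gene spots. The background column was left out because it followed the signal of its own spot; normexp with it (offset 50) was the first alternative. Day 3 was compared with day 0 by lmFit and eBayes over all 6 arrays, with Benjamini-Hochberg adjustment over 15437 genes. The groups come from the array titles. The pairs follow the title numbers and title style, and no label states that paired arrays share a culture. Deviations from the group means correlated with 0.27, 0.48 and 0.60 within pairs 1, 2 and unnumbered. Between numbers 1 and 2 across the days the correlations were 0.17 and 0.14. The value of the unnumbered pair cannot be told apart from the title style. These correlations do not establish a pairing, and the replicate block was fitted only as an alternative. No interval covers more than the spread between arrays, whose number limits the precision. Lists of other pathway genes and of cell type markers were not used, since 0 identifiers matched a symbol. The named genes are the 6 measured genes and, as 2 identifiers, those most like the one with the largest difference without background correction. The genes and lists were chosen with earlier results of these data known. Alternatives changed the background, offset, scaling, filter on dim genes, eBayes model or block, or left out an array; the replicate block on background-corrected values and the test of day by title style were added after seeing the data.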

Additional observations from a re-analysis of the deposited data

How the results depend on the processing

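No measured immediate early gene was called in any of the 19 alternatives tried for each, where the lowest adjusted p was 0.122 (limma), and all 6 stayed above the other detection limits tried. Egr1, Fos and Myc were lower at day 3 in all 19. Dusp1, at -0.01, became 0.0012 with the deposited background column (with and without the replicate block), 0.0072 with 75th percentile scaling, 0.013 with the authors' processed values and 0.14 with the numbered arrays alone. Nr4a1, at 0.03, became -0.036 with median scaling and -0.12 with the numbered arrays alone. With each array left out, the differences ran from -0.89 to -0.33 for Egr1, -0.83 to -0.23 for Fos, -0.047 to 0.42 for Jun, -0.45 to -0.15 for Myc, -0.097 to 0.082 for Dusp1 and -0.074 to 0.096 for Nr4a1. With the replicate block the adjusted p was lowest for Myc (0.221 against 0.620 without it, limma), and the block changed no call of these genes.

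The counts over all genes, 112 rises and 49 falls, were 95 and 42 with the replicate block. They became 4 and 1 with the background column, 266 and 81 with the authors' processed values over the 14431 genes listed on all arrays, and 294 and 97 with trend and robust eBayes. Median scaling gave 71 rises, no filter on dim genes 64 rises, and title style as a block 114 falls. Both counts were 0 with the numbered arrays alone and with the background column plus the replicate block, where limma gave 1998 and 1347 genes an unadjusted p under 0.05. With 1 array left out in turn, rises ran from 0 to 76 and falls from 0 to 19. The fits with arrays left out or with a block have fewer residual degrees of freedom; beyond that the cause was not tested.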
